A study of Homo sapiens with 6 samples.

Results

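The chaperonin TRiC, also called CCT, is built from the products of *TCP1*, *CCT2*, *CCT3*, *CCT4*, *CCT5*, *CCT6A*, *CCT7* and *CCT8*. These 8 genes were taken by symbol from a table of 58735 genes, and each symbol had 1 row. mRNA of 3 wild strain TPC-1 samples and 3 *RRM2*-OE-TPC-1 samples was sequenced. Expression was given in FPKM (fragments per kilobase of exon, divided by a depth factor per library that was not its total of reads on genes). TPC-1 cells are an established human line from a papillary thyroid carcinoma. *RRM2*-OE-TPC-1 cells carry *RRM2*, the small subunit of ribonucleotide reductase, in the lentivirus LV18 under a CMV promoter and were selected with puromycin. The wild strain cells are not described as carrying an empty vector, so the added gene cannot be told apart from the infection and the selection. The genotype labels of RRM2-OE replicates 2 and 3 read RRM3 and RRM4, whereas their titles read RRM2. *RRM2* itself measured 9.17, 9.05 and 8.52 FPKM in TPC-1 replicates 1 to 3 and 50.4, 47.5 and 47.2 FPKM in RRM2-OE replicates 1 to 3, so all libraries labelled RRM2-OE held more of it. Its log2 fold change was 2.43 (SE 0.044, limma adjusted p = 1.11e-08).

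TRiC is the cytosolic chaperonin of eukaryotic cells: a pair of stacked rings, each holding every subunit at a fixed place, around chambers that close when ATP is hydrolysed. It folds actins, tubulins and many proteins with WD40 beta-propellers, including cell cycle regulators. Prefoldin hands it newly made actin and tubulin chains, and phosducin-like proteins bind it and adjust which substrates it folds. In thyroid cells, as in other cells, it is expressed throughout and is known to be abundant in dividing cells.

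All libraries had similar depth, 14317091 to 17084067 recovered reads on genes, of which mitochondrial genes took 4.29% to 5.89%. Of the thyroid markers, *PAX8* averaged 69.3 FPKM in TPC-1 and 58.5 FPKM in RRM2-OE and *FOXE1* 4.30 and 3.19 FPKM, while *TG*, *TSHR* and *SLC5A5* stayed at or below 0.11 FPKM and *NKX2-1* was at 0. The epithelial keratin *KRT18* averaged 41.2 and 85.2 FPKM, whereas *EPCAM*, *KRT19* and *CDH1* were near 0. Of 8 markers of other cell types, *CD3E*, *MS4A1* and *HBB* were at 0 and *PTPRC*, *VWF* and *CD68* near it, and the sum of all 8 was 1.60 to 1.91 FPKM in TPC-1 and 0.51 to 0.68 FPKM in RRM2-OE, most of it *COL1A1* and *PECAM1*. The part of these differences in the results was not tested.

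The subunit genes lie apart in the genome, on 7 chromosomes of GRCh38, and only chromosome 2 holds 2 of them. *TCP1* is at chr6:159778498-159789749 on the minus strand, *CCT2* at chr12:69585334-69601570 on the plus strand and *CCT3* at chr1:156308968-156367873 on the minus strand. *CCT4* is at chr2:61868089-61888804 on the minus strand, *CCT5* at chr5:10249921-10266412 on the plus strand and *CCT6A* at chr7:56051630-56063989 on the plus strand. *CCT7* is at chr2:73233420-73253021 on the plus strand and *CCT8* at chr21:29055805-29073797 on the minus strand. Their principal coding sequences are alike in length, from 531 codons for *CCT6A* to 556 for *TCP1*.

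All 8 subunit mRNAs were higher in RRM2-OE than in TPC-1, by 1.48 times (*CCT4*) to 1.78 times (*CCT6A*), and for each of them the lowest RRM2-OE library lay above the highest TPC-1 library. Each passed the adjusted p of 0.05 in limma, against 34.9% of the 13621 tested genes that passed in this direction and 32.7% that passed in the other. Genes higher in every RRM2-OE library than in any TPC-1 library made up 37.3% of tested genes. None of the 8 reached an absolute log2 fold change of 1 as well, which 11.5% of tested genes did. The median log2 fold change of the subunits was 0.75, and that of all tested genes 0.01. In bulk samples such as these, more cells with a transcript and more of it per cell cannot be told apart.

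**Figure D1:**
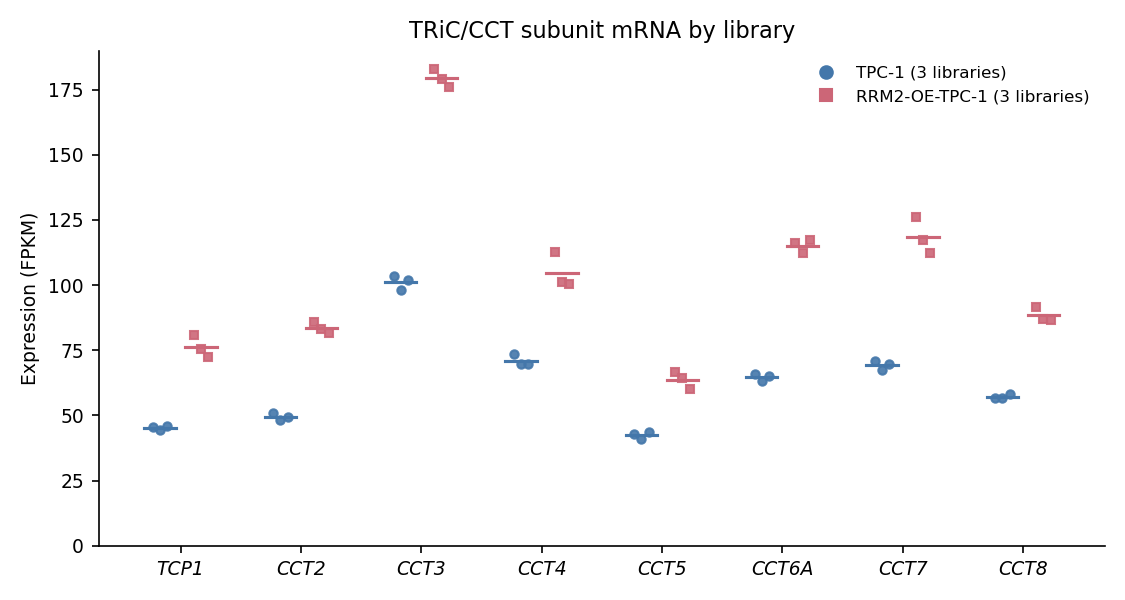
Expression of each TRiC subunit gene in FPKM (vertical axis, from 0) in the 3 TPC-1 libraries (blue circles) and the 3 RRM2-OE-TPC-1 libraries (red squares), replicates 1 to 3 from left to right, with horizontal lines at the group means. For all 8 genes the red points lie above the blue ones, with *CCT3* the highest in both groups (101.1 and 179 FPKM) and *CCT5* the lowest (42.5 and 63.7 FPKM).

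*CCT3*, the gamma subunit, was the most abundant. It measured 104, 98.0 and 102 FPKM in TPC-1 replicates 1 to 3 and 183, 179 and 176 FPKM in RRM2-OE replicates 1 to 3. The gap between the groups was many times wider than the range within either of them. Mean expression was 101.1 ± 2.87 FPKM (SD, n = 3) and 179 ± 3.35 FPKM (SD, n = 3), a log2 fold change of 0.83 (SE 0.035, 95% interval 0.75 to 0.91, limma adjusted p = 4.98e-07).

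*CCT6A*, the zeta subunit found in most tissues, had the largest ratio of means, 1.78. In TPC-1 its values were 65.8, 63.2 and 65.1 FPKM, and in RRM2-OE 116, 112 and 117 FPKM. Libraries of a group varied by 2.03% and 2.13% (coefficient of variation), and it was the only subunit whose RRM2-OE maximum was in replicate 3. The log2 fold change was 0.83 (SE 0.033, 95% interval 0.76 to 0.91, limma adjusted p = 3.52e-07). Its paralog *CCT6B*, a zeta subunit known from testis, stayed at 0.040 to 0.19 FPKM over the 6 libraries and was too low to test.

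*CCT7*, the eta subunit, measured 71.0, 67.5 and 69.6 FPKM in TPC-1 and 126, 117 and 112 FPKM in RRM2-OE. Its RRM2-OE libraries had the widest range in FPKM of any subunit and still lay above all TPC-1 values. Relative to the mean, the RRM2-OE libraries varied more for *CCT4* (coefficient of variation 6.53%, against 6.04% for *CCT7*). The difference was 0.77 on the log2 scale (SE 0.047, 95% interval 0.66 to 0.88, limma adjusted p = 3.19e-06).

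*CCT2*, the beta subunit, also known as a receptor for the autophagy of solid protein aggregates, measured 50.9, 48.1 and 49.4 FPKM in TPC-1 and 86.0, 83.0 and 81.5 FPKM in RRM2-OE. Replicate 1 was the highest in both groups. Its log2 fold change of 0.76 had an SE of 0.036 (95% interval 0.67 to 0.84, limma adjusted p = 9.32e-07).

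*TCP1*, the alpha subunit after which the family is named, had 45.5, 44.6 and 45.8 FPKM in TPC-1, the narrowest TPC-1 range of the 8. The RRM2-OE libraries had 80.7, 75.4 and 72.6 FPKM, with replicate 1 the highest and replicate 3 the lowest. The log2 fold change of 0.75 (SE 0.043, 95% interval 0.65 to 0.85, limma adjusted p = 2.25e-06) was close to the median subunit. On the opposite strand its exons share 397 bases, 8.05% of its exon bases, with *ACAT2*, an enzyme that makes acetoacetyl-CoA, which averaged 15.3 and 24.9 FPKM. On the same strand they share 140 bases with the small nucleolar RNA gene *SNORA29*, at 0 in both groups. They share 12 bases with *SNORA20*, another such gene, at 0.16 FPKM on average in both groups.

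*CCT8*, the theta subunit, measured 56.6, 56.7 and 58.2 FPKM in TPC-1 and 91.5, 87.0 and 86.6 FPKM in RRM2-OE. The TPC-1 libraries were close together, and RRM2-OE replicate 1 stood above the other RRM2-OE libraries. A log2 fold change of 0.63 (SE 0.034, 95% interval 0.55 to 0.71, limma adjusted p = 1.77e-06) placed it below the median of the subunits.

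*CCT5*, the epsilon subunit, was the least abundant in every library. Values were 43.0, 40.8 and 43.7 FPKM in TPC-1 and 66.6, 64.4 and 60.1 FPKM in RRM2-OE. The groups did not overlap, and the log2 fold change was 0.58 (SE 0.047, 95% interval 0.47 to 0.69, limma adjusted p = 1.34e-05). Its exons share 1757 bases, 30.1% of its exon bases, with the antisense gene *AC012640.4*, which averaged 0 FPKM in TPC-1 and 0.033 FPKM in RRM2-OE.

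*CCT4*, the delta subunit, known like epsilon to form rings of its own kind when made alone, had the smallest log2 fold change. It measured 73.5, 69.8 and 69.6 FPKM in TPC-1 and 113, 101.1 and 100.3 FPKM in RRM2-OE. In both groups replicate 1 stood above the other two, which were close together. Its log2 fold change was 0.56 (SE 0.050, 95% interval 0.44 to 0.67, limma adjusted p = 2.62e-05). On the opposite strand, exons of *COMMD1* share 81 bases with it (2.86% of its exon bases) and averaged 5.742 and 6.999 FPKM, and exons of *AC107081.2* share 275 bases (9.72%) and averaged 0.88 and 0.66 FPKM. Whether strand was used in counting is not given in the sources used here, so reads in these shared stretches could have come from either gene.

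**Figure D2:**
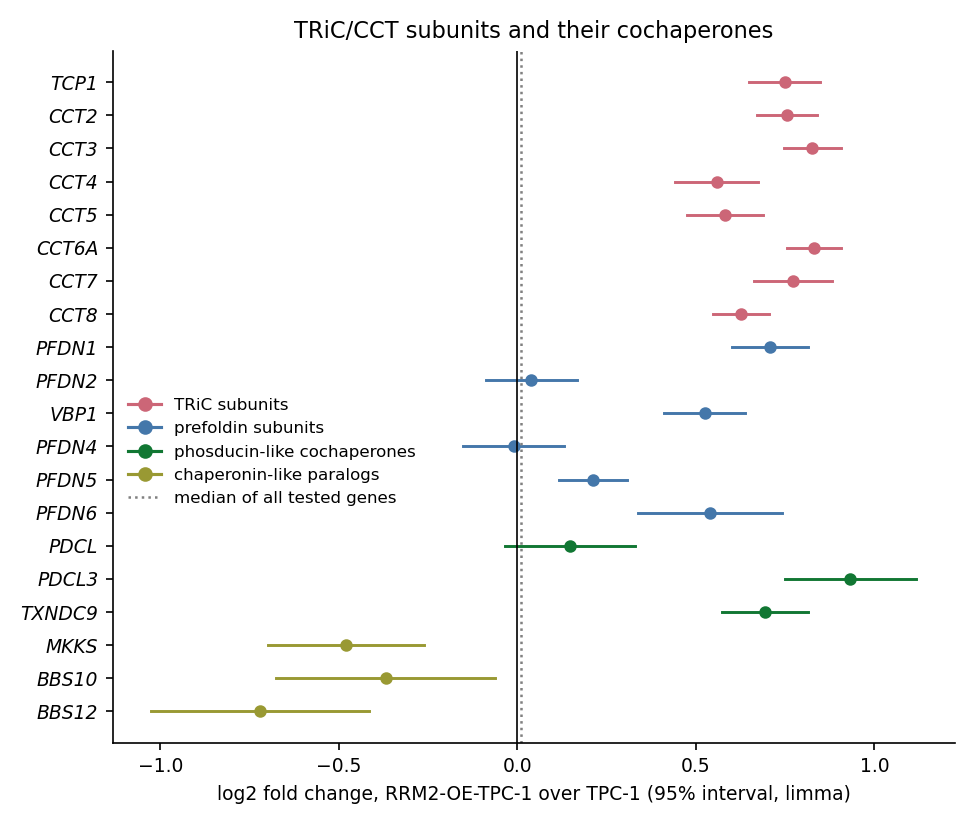
The log2 fold change of RRM2-OE-TPC-1 over TPC-1 (horizontal axis, points, with lines for the 95% interval from limma) for the TRiC subunits (red), prefoldin subunits (blue), phosducin-like cochaperones (green) and tested chaperonin-like paralogs (olive). The 8 subunits lie between 0.56 and 0.83 and all intervals are above 0, *PFDN2*, *PFDN4* and *PDCL* have intervals that include 0, and the 3 paralogs lie below 0.

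The changes of the subunits stood in the upper part of all tested genes but were not extreme. A log2 fold change at or above that of *CCT4* was seen in 15.4% of tested genes, at or above the subunit median in 8.80%, and at or above that of *CCT6A* in 7.14%. The subunits are abundant, so they were also set beside genes of like level. Among the 649 tested genes with a mean over the 6 libraries of at least 53.1 FPKM, the mean of *CCT5*, 52.7% passed as higher in RRM2-OE, their median log2 fold change was 0.17, and 22.0% were at or above *CCT4*. This last comparison was chosen after the values were seen.

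**Figure D3:**
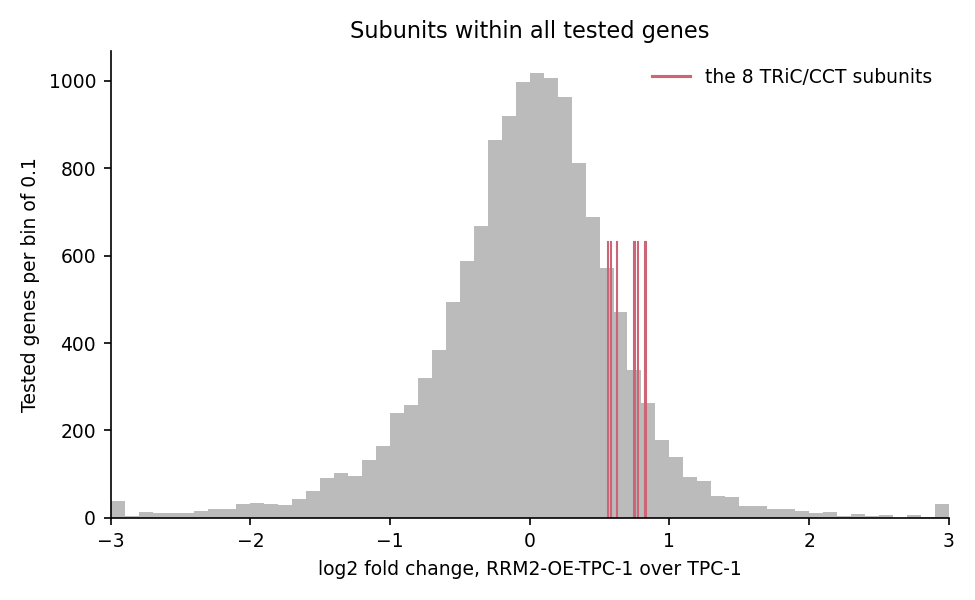
Number of the 13621 tested genes (vertical axis) in bins of the log2 fold change of RRM2-OE-TPC-1 over TPC-1 (horizontal axis), with the 65 genes beyond 3 in either direction placed in the outermost bins, and red lines at the 8 TRiC subunits. The lines fall together between 0.56 and 0.83, to the right of the peak, and 7.14% of tested genes lie at or above the last of them.

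Added over the subunits, FPKM came to 510, 489 and 503 in TPC-1 and 862, 820 and 807 in RRM2-OE. The sums rose 1.66 times on average, from 500.5 ± 10.8 to 829.5 ± 29.3 (SD, n = 3 each), and did not overlap. The subunits held 33715, 32551 and 31845 reads in the TPC-1 libraries and 49477, 55876 and 51008 in the RRM2-OE libraries. As a share of all reads on genes this was 0.21%, 0.20% and 0.21% against 0.35%, 0.33% and 0.32%.

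The libraries of a group moved together over the subunits. RRM2-OE replicate 1 was the highest of its group for 7 of the 8 genes and replicate 3 the lowest for 7. TPC-1 replicate 2 was the lowest of its group for 6. Between libraries of a group the coefficient of variation was 1.39% to 6.53%, and counting error alone, from 3096 to 12317 reads per subunit and library, gives 0.94% to 1.78%.

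The mean proportions of the 8 mRNAs differed by less than 2 percentage points between the groups, and for 5 of the 8 the groups did not overlap. *CCT3* made up 20.3%, 20.1% and 20.2% of the summed FPKM in TPC-1 and 21.2%, 21.8% and 21.8% in RRM2-OE. *CCT6A* made up 12.9% in each TPC-1 library and 13.5%, 13.7% and 14.5% in RRM2-OE. Both shares were thus higher in every RRM2-OE library, with mean differences of 1.42 and 0.97 percentage points. *CCT4* made up 14.4%, 14.3% and 13.8% in TPC-1 and 13.1%, 12.3% and 12.4% in RRM2-OE. *CCT5* went from a mean of 8.495 ± 0.18% to 7.68 ± 0.20%, and *CCT8* from 11.4 ± 0.29% to 10.7 ± 0.069% (SD, n = 3 each). These 3 shares were lower in every RRM2-OE library. The other shares, of *TCP1*, *CCT2* and *CCT7*, overlapped between the groups. An exact permutation test, two-sided, gave p = 0.1 for each of the 5 shares that did not overlap, the smallest p that 3 against 3 libraries allow, and 0.16 after Benjamini-Hochberg adjustment over the 8. For *CCT2* and *CCT7* the exact p was 0.2 (adjusted 0.229), and for *TCP1* 0.4 (adjusted 0.4). This test could therefore not place any of these differences past 0.05. Leaving out 1 library at a time left 5 to 7 of the 8 shares without overlap. Removing a library cannot lower this number, so it is no check on the shares.

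**Figure D4:**
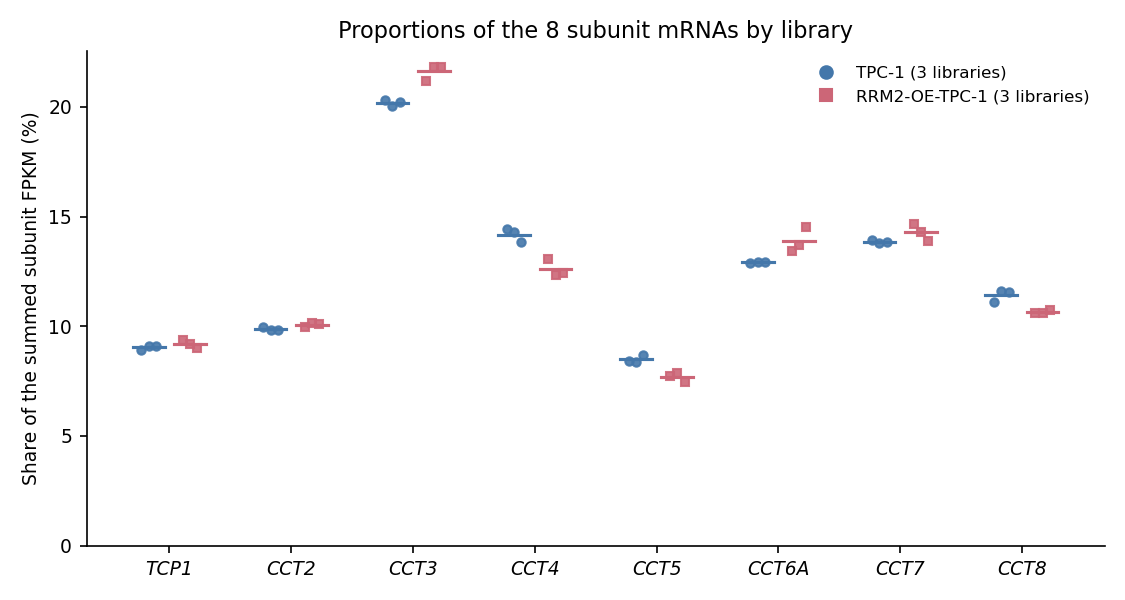
Share of each subunit in the summed FPKM of the 8 subunits, in percent (vertical axis, from 0), in the 3 TPC-1 libraries (blue circles) and the 3 RRM2-OE-TPC-1 libraries (red squares), with horizontal lines at the group means. The red points lie above the blue for *CCT3* and *CCT6A*, below for *CCT4*, *CCT5* and *CCT8*, and overlap for *TCP1*, *CCT2* and *CCT7*.

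Per kilobase of all annotated exons, as FPKM is deposited, the order of levels in TPC-1 was *CCT3*, *CCT4*, *CCT7*, *CCT6A*, *CCT8*, *CCT2*, *TCP1* and *CCT5*, and only *CCT4* and *CCT7* overlapped as neighbors. In RRM2-OE it was *CCT3*, *CCT7*, *CCT6A*, *CCT4*, *CCT8*, *CCT2*, *TCP1* and *CCT5*, where *CCT6A* overlapped with *CCT7* and with *CCT4*. *CCT3* exceeded *CCT5* 2.33 to 2.41 times in TPC-1 libraries and 2.75 to 2.93 times in RRM2-OE libraries. The exon length that FPKM divides by is longer than the principal transcript, by 1.12 times for *CCT4* and up to 2.12 times for *CCT2*. Per kilobase of the principal transcript, a scale chosen after the values were seen, the means in TPC-1 were 189 for *CCT3*, 130 for *CCT7*, 105 for *CCT2*, 95.2 for *CCT8*, 92.8 for *CCT6A*, 89.3 for *TCP1*, 79.7 for *CCT4* and 67.6 for *CCT5*. In RRM2-OE they were 335 for *CCT3*, 222 for *CCT7*, 177 for *CCT2*, 165 for *CCT6A*, 150 for *TCP1*, 147 for *CCT8*, 118 for *CCT4* and 101.2 for *CCT5*. On this scale 2 of 8 ranks in TPC-1 and 3 of 8 in RRM2-OE were the same as above, with *CCT3* first and *CCT5* last in both.

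Pseudogenes of the subunits took few reads. The deposited values cover 13 of them, of which 6 had a read and 3 had at least 10 reads in every library. *CCT6P1* held 96, 95 and 104 reads in TPC-1 and 98, 111 and 92 in RRM2-OE, *CCT6P3* 34, 35 and 38 against 40, 34 and 42, and *CCT8P1* 13, 19 and 10 against 19, 20 and 15. Their reads and their FPKM overlapped between the groups, unlike the FPKM of *CCT6A* and *CCT8*. No stretch of 150 bases, the length of a read, in the principal transcript of a subunit was identical in one of its pseudogenes that was compared. For stretches of 50 bases the largest share was 8.59%, for *CCT8* in *CCT8P1*.

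Since the subunits rose together, the promoter sequences of the genes were searched for short motifs on both strands. RefSeq windows on GRCh38.p14, reaching from upstream of an annotated start to 50 bases past it, were found for 7 of the 8 genes, all but *CCT6A*. The CCAAT box (CCAAT), bound by NF-Y, was in the windows of *TCP1*, *CCT2*, *CCT3* and *CCT8*, 4 of 7, and in those of 39.7% of all 27305 genes with a window. A heat shock element core (GAANNTTC), an inverted pair of the units bound by HSF1, was in those of *TCP1* and *CCT2*, 2 of 7, and 8.21% of all genes. The GC box (GGGCGG) was in 5 of 7 and 48.3% of all genes, and the E-box CACGTG, bound by MYC, in 0 of 7 and 8.77%. A match describes the letters of a window and not a bound site. Much of the sequence before the RefSeq starts is exon in GENCODE 29: 188 bases for *TCP1*, 213 for *CCT3*, 149 for *CCT8*, and 125 and 223 for *CCT2*. Part of the bases for *TCP1* is exon of another gene, *MRPL18*, and part of those for *CCT3* is exon of *TSACC*. The stretches of *CCT2*, *CCT3* and *CCT8* printed below lie inside the gene coordinates given above. The heat shock element core of *TCP1* lies outside the *TCP1* coordinates, on the side where the *MRPL18* exon bases lie. To which of these genes the element belongs was not tested. The stretches around the CCAAT boxes and the heat shock element cores are shown, as these 2 motifs were the ones found in subunit windows that are less common over all genes than the GC box, which is not shown. They are printed along the strand of the gene with the motif in capitals, and ATTGG is the CCAAT box on the other strand.
*TCP1* CCAAT box, chr6:159789739-159789768, minus strand, 154 bases before the start: atcggctatctaATTGGacaaaaatgccga
*CCT2* CCAAT box, chr12:69585356-69585385, plus strand, 91 bases before the start: gcccgtggggctCCAATcaaaatgggacgc
*CCT3* CCAAT box, chr1:156338350-156338379, minus strand, 75 bases before the start: ctaaggctgtcaATTGGtctgtttttgtgc
*CCT3* CCAAT box nearer the start, chr1:156338309-156338338, minus strand, 34 bases before the start: atgggtgcggtgATTGGcgactaccttgag
*CCT8* CCAAT box, chr21:29073694-29073723, minus strand, 63 bases before the start: aagggtgggctaATTGGagagccaggaaga
*TCP1* heat shock element core, chr6:159789815-159789844, minus strand, 231 bases before the start: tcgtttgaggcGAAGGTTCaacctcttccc
*CCT2* heat shock element core, chr12:69585789-69585818, plus strand, 89 bases before another annotated start: cccggagcgaaGAAATTTCtagtgtgggac

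The mRNAs of *HSF1*, *HSF2* and *MYC* were examined beside the subunits, and those of NF-Y were not. *HSF1*, the main activator of heat shock genes, averaged 25.1 and 27.8 FPKM (log2 fold change 0.15, limma adjusted p = 0.00512). *MYC*, a growth regulator, fell from 125 to 72.5 FPKM (log2 fold change -0.79, limma adjusted p = 8.92e-07). *HSF2*, a related heat shock factor, averaged 7.76 and 7.32 FPKM and did not pass (log2 fold change -0.08, adjusted p = 0.399), though without TPC-1 replicate 2 its log2 fold change was -0.16 (adjusted p = 0.0427). The activity of these factors was not measured.

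Prefoldin brings unfolded actin and tubulin to TRiC. Of its 6 subunits 4 passed as higher and none as lower, with a median log2 fold change of 0.37 (all tested genes 0.01). Of all tested genes 34.9% passed as higher and 67.6% in either direction. The number of prefoldin calls is near the share in either direction, but all of these calls were higher. *PFDN1* measured 19.6, 17.8 and 19.6 FPKM in TPC-1 and 31.6, 30.4 and 31.1 FPKM in RRM2-OE, a log2 fold change of 0.71 (limma adjusted p = 4.25e-06). *PFDN6*, *VBP1* and *PFDN5* rose by 0.54, 0.53 and 0.21 on the log2 scale (limma adjusted p = 7.44e-04, 3.14e-05 and 0.00208). *PFDN2*, the most abundant prefoldin mRNA at 141 and 144 FPKM, had a log2 fold change of 0.04 (95% interval -0.09 to 0.17, adjusted p = 0.556), which was -0.02 without TPC-1 replicate 2 and also with library totals as the scale. For *PFDN4* it was -0.01 (95% interval -0.15 to 0.13, adjusted p = 0.899), and it turned positive, 0.03, 0.02 and 0.03, without TPC-1 replicate 3, RRM2-OE replicate 2 or RRM2-OE replicate 3. The intervals of both lie below that of the smallest subunit change, in *CCT4*.

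Of the phosducin-like cochaperones, *PDCL3*, a regulator of TRiC in actin and tubulin folding, measured 7.79, 6.24 and 7.30 FPKM in TPC-1 and 14.2, 13.3 and 13.4 FPKM in RRM2-OE. Its log2 fold change of 0.93 (SE 0.080, limma adjusted p = 1.93e-05) had a 95% interval of 0.75 to 1.12, which overlapped those of 5 of the 8 TRiC subunits. *TXNDC9*, a negative regulator of TRiC, rose by 0.69 on the log2 scale, from 12.03 to 19.51 FPKM (limma adjusted p = 9.05e-06). *PDCL*, which acts with TRiC in the assembly of G protein beta and gamma subunits, averaged 12.61 and 13.98 FPKM and did not pass (log2 fold change 0.15, adjusted p = 0.13). Without RRM2-OE replicate 2 its log2 fold change was 0.21 (adjusted p = 0.0446).

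The chaperonin-like paralogs lay on the other side of 0. *MKKS*, *BBS10* and *BBS12* work with TRiC in the assembly of the BBSome, a complex that carries membrane proteins of the cilium, and all 3 passed as lower, as did 32.7% of tested genes. *BBS12* measured 2.22, 1.84 and 2.05 FPKM in TPC-1 and 1.33, 1.26 and 1.01 FPKM in RRM2-OE (log2 fold change -0.72, limma adjusted p = 0.00149). *MKKS* fell from 2.84 to 2.00 FPKM (log2 fold change -0.48, limma adjusted p = 0.00228). *BBS10* averaged 3.80 and 2.91 FPKM (log2 fold change -0.37, limma adjusted p = 0.0372), and its call was lost without TPC-1 replicate 1 (adjusted p = 0.0547), TPC-1 replicate 2 (0.11), RRM2-OE replicate 1 (0.111) or RRM2-OE replicate 3 (0.0654), without the filter on low values (0.109) and in limma without trend (0.0587). *CCT8L2* and *CCT8L1P* were listed at 0.

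**Figure D5:**
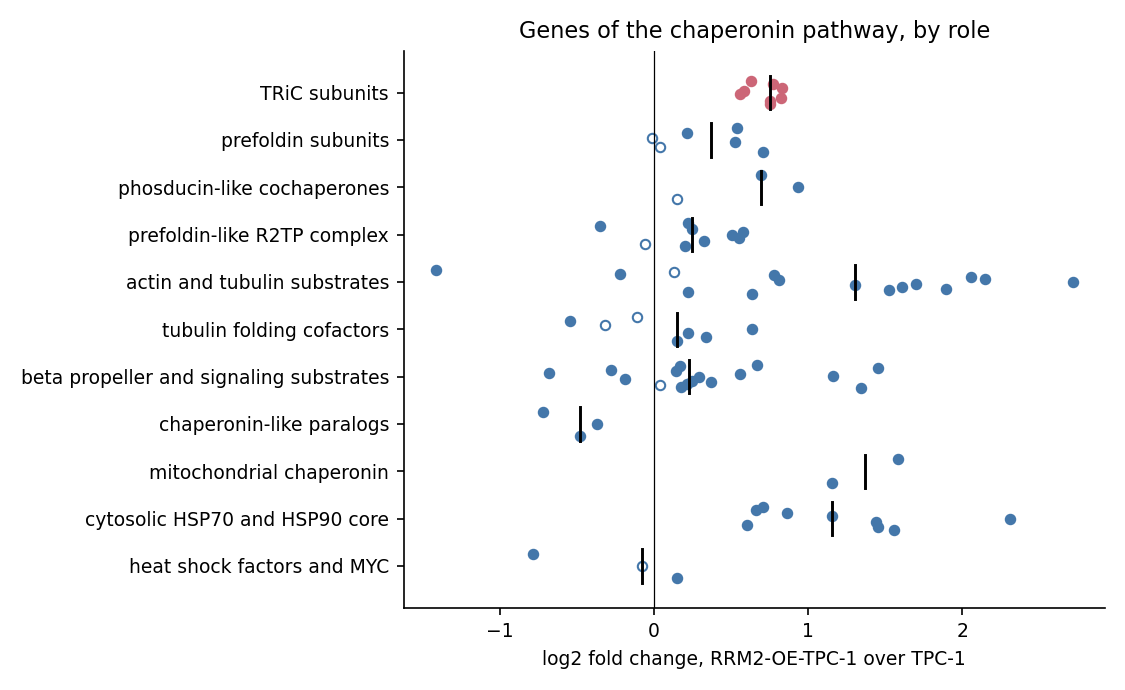
The log2 fold change of RRM2-OE-TPC-1 over TPC-1 (horizontal axis) of each tested gene of the lists by role, with filled points for genes past an adjusted p of 0.05 in limma, open points for the others, and a black line at the median of each list. The 8 TRiC subunits (red) form a narrow group at 0.56 to 0.83, while the actin and tubulin substrates run from -1.42 to 2.72.

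Among the classical substrates of TRiC, every tested actin, alpha-tubulin and beta-tubulin gene passed as higher. The genes that passed as lower were the epsilon-tubulin *TUBE1* and the gamma-tubulin *TUBG2*. The other gamma-tubulin, *TUBG1*, named after its values were seen, was more abundant and passed as higher. It rose from 17.3 to 29.7 FPKM (log2 fold change 0.78, limma adjusted p = 3.71e-06). Of 18 actin and tubulin genes 15 were tested, of which 12 passed as higher and 2 as lower, with a median log2 fold change of 1.30, against 34.9% of all tested genes higher and 32.7% lower. An absolute log2 fold change of 1 was also passed by 9 of the 15, and by 11.5% of all tested genes. *TUBB2A*, a beta-tubulin, measured 3.37, 3.41 and 4.00 FPKM in TPC-1 and 22.0, 25.2 and 25.3 FPKM in RRM2-OE (log2 fold change 2.72, limma adjusted p = 1.12e-07). *TUBB4B*, an abundant beta-tubulin, rose from 93.4 to 414 FPKM (log2 fold change 2.15, limma adjusted p = 1.80e-08). *TUBE1*, the epsilon-tubulin of centrioles, fell from 5.98 to 2.18 FPKM (log2 fold change -1.42, limma adjusted p = 3.68e-06). *TUBG2*, a gamma-tubulin, averaged 5.60 and 4.81 FPKM (log2 fold change -0.22, limma adjusted p = 0.027), and its call was lost without TPC-1 replicate 2 (adjusted p = 0.0638), TPC-1 replicate 3 (0.076) or RRM2-OE replicate 1 (0.0691), and without the filter on low values (0.0622). The cytoplasmic actins, named after their values were seen, also rose, *ACTB* from 1010 to 1567 FPKM (log2 fold change 0.64, limma adjusted p = 8.61e-06) and *ACTG1* from 1449 to 1689 FPKM (log2 fold change 0.22, limma adjusted p = 0.00396). Tubulin and actin genes have near-identical copies, so the split of reads between them is uncertain.

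The tubulin folding cofactors, which take tubulin on from TRiC, included 4 of 7 that passed as higher and 1 as lower, with a median of 0.15, and this number of calls is near the 67.6% of all tested genes that passed in either direction. *TBCD* rose by 0.64 and *TBCB* by 0.34 on the log2 scale (limma adjusted p = 4.21e-05 and 9.91e-05), and *TBCEL*, which promotes tubulin breakdown, fell by 0.55 (limma adjusted p = 4.97e-04). Of 16 beta-propeller and signaling substrates 12 passed as higher and 3 as lower (34.9% and 32.7% of all tested genes), with a median of 0.23. *CCNE1*, the cyclin E of S phase entry, rose from 1.17 to 3.38 FPKM (log2 fold change 1.45, limma adjusted p = 1.32e-05) and *CDC20*, an activator of the anaphase-promoting complex, from 45.5 to 116 FPKM (log2 fold change 1.35, limma adjusted p = 1.95e-07). The tumor suppressor *VHL*, whose protein folds on TRiC, fell by 0.68 on the log2 scale (limma adjusted p = 1.11e-06). In the prefoldin-like R2TP complex, a cochaperone of HSP90, 7 of 9 tested genes were higher and 1 lower (34.9% and 32.7% of all tested genes), with a median of 0.24. *RUVBL2*, its ATPase, rose by 0.58 on the log2 scale (limma adjusted p = 2.31e-05) and *PIH1D1*, its adaptor, fell by 0.35 (limma adjusted p = 0.00185). *WDR92*, another member, had a log2 fold change of 0.55 (limma adjusted p = 0.0187), with the call lost without TPC-1 replicate 2 (adjusted p = 0.0563), TPC-1 replicate 3 (0.0534) or RRM2-OE replicate 1 (0.0616), and without the filter on low values (0.0732).

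Genes of other chaperone systems were also higher. All 9 tested genes of the cytosolic HSP70 and HSP90 core passed as higher, as did 34.9% of all tested genes, with log2 fold changes of 0.61 to 2.31 and a median of 1.15. *HSP90AA1*, the inducible HSP90, measured 141, 132 and 139 FPKM in TPC-1 and 707, 671 and 665 FPKM in RRM2-OE (log2 fold change 2.31, limma adjusted p = 1.14e-08). *HSPA8*, the constitutive HSP70, rose from 140 to 411 FPKM (log2 fold change 1.55, limma adjusted p = 2.17e-08). The mitochondrial chaperonin *HSPD1* and its lid *HSPE1*, the counterparts of TRiC in mitochondria, rose by 1.16 and 1.58 on the log2 scale (limma adjusted p = 9.91e-08 and 3.39e-07). The means of *HSPD1* were 85.2 and 190 FPKM.

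Among all tested genes, the patterns over the 6 libraries most like the mean of the subunits, by Pearson's r of log2 values, were those of *ARL6IP1* (0.99988), *ABHD17A* (0.99984), *CACYBP* (0.99968), *SF3B2* (0.99964) and *ISG15* (0.99962). Many genes came near this, since the 6 libraries fall into 2 groups, and 2855 tested genes had an r above 0.95. The changes of the 5 named genes ranged from 0.39 in *SF3B2* to 2.19 in *ISG15* on the log2 scale. *ARL6IP1*, a protein that shapes the endoplasmic reticulum, had 39.6, 37.9 and 39.5 FPKM in TPC-1 and 77.0, 72.7 and 71.0 FPKM in RRM2-OE.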

How the data were processed

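mRNA of 3 wild strain TPC-1 and 3 *RRM2*-OE-TPC-1 samples, described as biological triplicates, was sequenced. Per the labels and methods, fastp was used for trimming, HISAT2 2.0.5 for alignment and featureCounts 1.5.0 for counting, and the authors deposited FPKM values. The processing notes name GRCh38.p14 and also DESeq2 1.20.0, which the authors used for their own comparisons. The labels describe rRNA removal and RNase R, the methods poly(A) selection, so the library preparation is uncertain. All 58735 gene identifiers and positions matched GENCODE 29.

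From the deposited FPKM and the gene lengths, whole reads were recovered (every value within 0.01 of a whole number), which gives 14317091 to 17084067 reads on genes per library. The FPKM were analysed as log2(FPKM + 0.1) with limma 3.58.1 (lmFit, eBayes with trend) in R 4.3.3. Fold changes are on this scale. Genes with at least 0.5 FPKM and 10 reads in at least 3 libraries were tested, 13621 in all, with Benjamini-Hochberg adjustment over them. They were called at an adjusted p of 0.05 or less, the rule in the sequencing methods of the study. The volcano plot of the study also asked for an absolute log2 fold change above 1. The procedure was tested on simulated data in which far fewer genes changed than were called here. That test does not bear on the share of genes called. Shares were compared with an exact permutation test in Python 3.11.15 with scipy 1.17.1.

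The members and gene lists were chosen with earlier results of these data known. Named are all subunits and *RRM2*, all prefoldin, phosducin-like and paralog genes, and in every other list the 2 called genes with the largest log2 fold change in each direction. Also named are up to 3 pseudogenes with the most reads, genes whose exons overlap a subunit, and the 5 genes with the most similar pattern. A marker gene and a substrate gene are not reported here. *TBCE* has 2 rows, of which that with more reads was used. Promoter windows came from RefSeq on GRCh38.p14. Alternatives covered scaling, pseudocount, filter, variance model, voom on recovered reads, genes tested, replicate block and leaving out each library.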

Additional observations from a re-analysis of the deposited data

How the results depend on the processing

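In 15 alternative fits all 8 subunits kept their direction and passed the adjusted p of 0.05 in limma, 120 of 120 pairs of subunit and alternative, with a largest adjusted p of 4.57e-04 (*CCT4*). The fit with median-of-ratios factors adds little, since the deposited FPKM are already scaled almost in this way. Its median subunit log2 fold change was 0.752, as in the main fit. Asking for an absolute log2 fold change of 1 as well left 0 subunits called, 19 of 64 called genes of the pathway lists, and 1560 of the 9207 genes called. With library totals as the scale, the median log2 fold change of the subunits was 0.69 and that of all tested genes -0.05, and 46.0% of calls were higher in place of 51.7%. Per kilobase of the principal transcript, an alternative chosen after seeing the data, 2 of 8 ranks of the subunit levels held in TPC-1 and 3 of 8 in RRM2-OE. Leaving out 1 library at a time gave 8 to 8 subunits called, 8239 to 8639 genes called, 60 to 63 pathway genes called, a median subunit log2 fold change of 0.72 to 0.78, a log2 fold change of *RRM2* of 2.40 to 2.45, a ratio of summed subunit FPKM of 1.62 to 1.68, and 5 to 7 shares that did not overlap. The number of shares without overlap cannot fall when a library is left out.

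The replicate numbers did not pair the samples: deviations from the group means correlated at -0.01, -0.006 and -0.06 for numbers 1 to 3 over 13621 genes. With the replicate number as a block, 8 subunits, 8934 genes and 63 pathway genes were called, with a median subunit log2 fold change of 0.75.

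Depth, at 3096 or more reads per subunit and library, was not limiting for the subunits, whereas low paralogs such as *CCT6B* could not be tested. With 3 libraries a group, an exact permutation p cannot go below 0.1.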
